A study of Mus musculus with 5 samples.

Results

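The 8 genes described here (Tmem176a, Tmem176b, Itga1, Cxcr6, Inpp4b, Cd200r1, Rora and Il7r) are known to be higher in type 1 innate lymphoid cells (ILC1) than in natural killer (NK) cells. They were selected by gene symbol from a deposited table of 13004 genes, and all 8 had a row in it. RNA had been sequenced from spleen cells of 8-week-old C57BL/6 mice, sorted by flow cytometry as live cells that lack CD3 and carry both NK1.1 and DX5. The control group held 3 libraries (replicates 1, 2 and 3) from Mycf/f mice, whose Myc alleles carry loxP sites. The MycKO group held 2 libraries (replicates 5 and 6) from mice labelled Mycdelta/delta/Ncr1Cre, in which Cre under control of the NK receptor gene Ncr1 deletes Myc. No Cre is named for the controls, so an effect of Cre and one of Myc loss cannot be told apart. Whether libraries stem from different mice is not stated, and p-values therefore measure only how these samples vary, in part perhaps for technical reasons.

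NK cells and ILC1 are related innate lymphocytes that both carry NK1.1 and both make interferon gamma. NK cells circulate, kill target cells and need the transcription factor EOMES, whereas ILC1 mostly stay in tissues such as the liver, depend less on EOMES and carry the integrin CD49a and the interleukin 7 receptor. DX5 recognises CD49b, the product of Itga2, which NK cells carry and ILC1 largely lack, so the sort was aimed at NK cells. Most of the 8 genes are also known from other cells. Il7r is known from T cells, Cd200r1 and the Tmem176 genes from myeloid cells, and Rora from group 2 innate lymphoid cells.

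Levels are given in RPKM, reads scaled by transcript length and by library total, which allows genes to be compared per length. The reads in listed genes came to between 13337084 and 17610826 in 4 libraries and to 5451728 in MycKO 5, so values of MycKO 5 carry more counting error. Myc itself stood in controls 1, 2 and 3 at 13.0, 23.0 and 21.2 RPKM, and MycKO 5 and 6 stood at 12.5 and 8.70 RPKM. It was therefore lower in both MycKO libraries than in every control, though still present as a whole-gene value. The difference was not called (log2 fold change -0.77, limma adjusted p = 0.297). NK markers were abundant in both groups. For Ncr1 the control mean was 1264 ± 345 RPKM (SD, n = 3) against 688 ± 78.7 RPKM (SD, n = 2) for MycKO, and for Eomes 172 ± 5.47 against 143 ± 16.2 RPKM. For both genes both MycKO libraries lay below all controls, and neither difference was called (limma adjusted p = 0.143 and 0.358). Klrb1c, the gene of NK1.1, was not lower on average. Its means were 495 ± 66.7 RPKM in controls and 524 ± 171 RPKM in MycKO, with overlapping groups and a log2 fold change of 0.05.

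All 8 members were on average higher in MycKO, and for 7 of them both MycKO libraries lay above all 3 controls. Among all 11190 genes tested, 18.8% had both MycKO libraries above all controls. The members were proposed with this contrast already known, so their levels and fold changes are a description and support nothing. On the log2 scale of RPKM + 1, the median of the members' fold changes was 1.65, beside 0.05 over all genes tested. By limma with Benjamini-Hochberg adjustment over all genes, 1 of the 8 members (Tmem176b) was called higher, beside 1.24% of the genes tested (1.34% in either direction). Limma-voom on reads called 3 of the 8 (Tmem176b, Inpp4b and Il7r), beside 1.83% of genes. The authors' deposited table called 4 of the 8 as higher (these 3 and Cxcr6), beside 2.9% of its genes. In RNA from a sorted population, a larger share of cells that carry a transcript and more transcript per cell cannot be told apart.

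**Figure D1:**
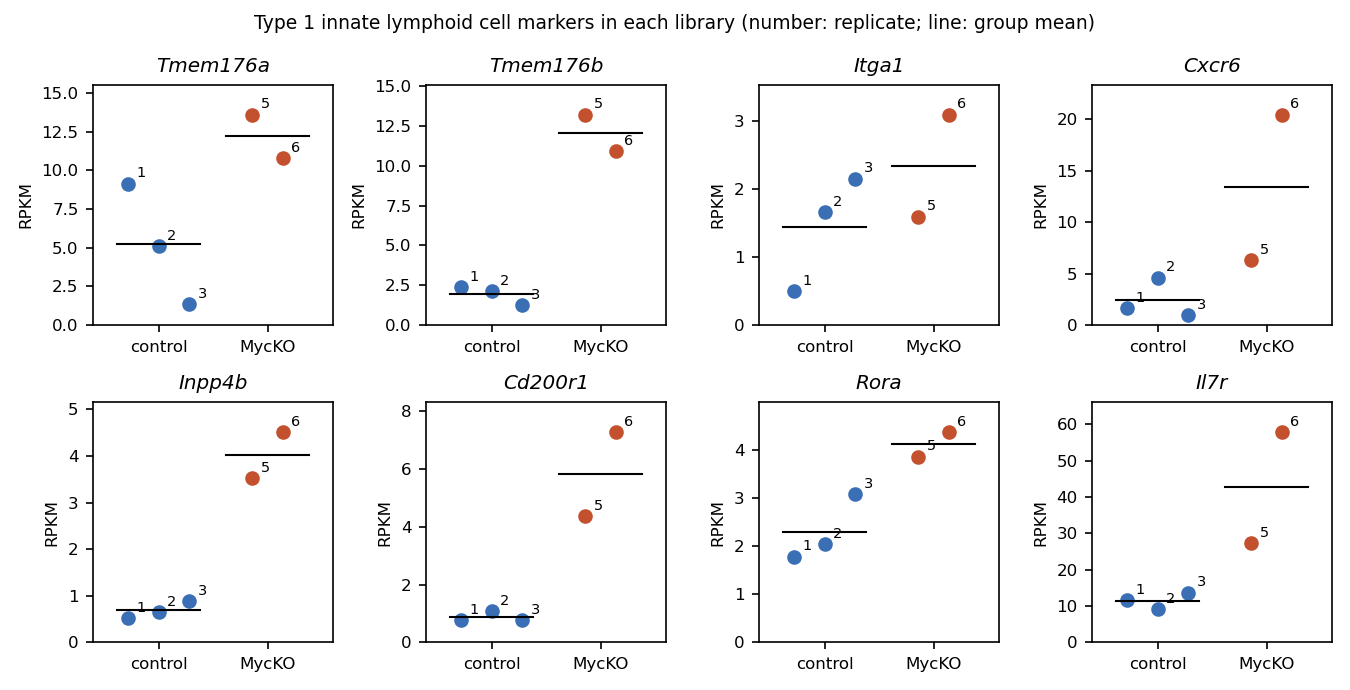
Level of each of the 8 members in RPKM (vertical axes, each starting at 0) in the 3 control libraries (blue) and the 2 MycKO libraries (red). Numbers are replicates and lines are group means; only for Itga1 does a MycKO library, at 1.59 RPKM, lie within the control range.

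Il7r encodes the alpha chain of the interleukin 7 receptor, which supports survival of T cells and of innate lymphoid cells other than most mature NK cells. Controls 1, 2 and 3 held 11.6, 9.09 and 13.7 RPKM of Il7r, and MycKO 5 and 6 held 27.4 and 57.9 RPKM. It was the most abundant member in both groups, and the groups did not overlap. The control mean of 11.5 ± 2.30 RPKM (SD, n = 3) compared with a MycKO mean of 42.7 ± 21.6 RPKM (SD, n = 2), 3.72 times as high, with a log2 fold change of 1.73 (SE 0.32). MycKO 6 held 2.11 times the level of MycKO 5 (95% interval 1.92 to 2.34, exact, for counting error only). The controls lay closer together, the highest being 1.51 times the lowest. The log2 fold change was 1.20 without MycKO 6 and 2.26 without MycKO 5, where Il7r was called.

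Cxcr6 encodes the receptor for CXCL16, which holds innate lymphocytes in the liver sinusoids. The 3 controls (1, 2 and 3) held 1.68, 4.62 and 0.961 RPKM of Cxcr6, and MycKO 5 and 6 held 6.29 and 20.5 RPKM. The lowest MycKO library was above the highest control by less than the controls differed among themselves. The control mean was 2.42 ± 1.94 RPKM (SD, n = 3) and the MycKO mean 13.4 ± 10.02 RPKM (SD, n = 2), giving a log2 fold change of 2.02 (SE 0.58). Of the 8 members it differed most between the MycKO libraries, with MycKO 6 at 3.25 times MycKO 5 (95% interval 2.51 to 4.28). Controls differed too, control 2 being at 4.81 times control 3 (95% interval 3.16 to 7.59), from 154 and 26 reads. The log2 fold change was 2.80 without MycKO 5 and 1.24 without MycKO 6.

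The start regions of Il7r and Cxcr6 are shown because, of the members searched for 6 short motifs, they alone held a match to any. RefSeq windows (GRCm38.p6) run from 250 bases before to 50 bases after the transcript start, and 7 of the 8 members had at least 1 (10 windows in all; none for Cd200r1). Capitals mark matches to the RUNX motif TGTGGT on either strand. The Il7r window is at chr15:9529827-9530126 on the minus strand and the Cxcr6 window at chr9:123806227-123806526 on the plus strand.
Il7r: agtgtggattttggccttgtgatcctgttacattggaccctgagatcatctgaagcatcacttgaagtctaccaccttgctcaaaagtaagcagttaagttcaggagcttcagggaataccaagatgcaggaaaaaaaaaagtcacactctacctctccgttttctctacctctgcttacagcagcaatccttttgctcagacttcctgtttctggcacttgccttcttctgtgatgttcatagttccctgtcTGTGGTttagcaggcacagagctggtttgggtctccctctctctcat
Cxcr6: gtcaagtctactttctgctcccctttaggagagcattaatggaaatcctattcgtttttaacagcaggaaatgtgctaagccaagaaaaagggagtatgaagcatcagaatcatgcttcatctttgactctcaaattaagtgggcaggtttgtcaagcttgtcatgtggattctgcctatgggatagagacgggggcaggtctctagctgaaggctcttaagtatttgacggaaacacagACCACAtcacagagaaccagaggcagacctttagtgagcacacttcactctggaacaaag
Each of these windows held 1 match to TGTGGT, and none of the other 8 windows held one. Of all 32851 mouse windows of this length, 16.8% hold it. None of the 10 windows held CACGTG (the E-box bound by MYC with MAX, in 7.15% of all windows), AGGTCA (the half-site of ROR proteins, 16.3%), GGTGTGA (T-box, 3.98%), TGANTCA (AP-1, 7.81%) or AGATAA (the motif of GATA factors, 11.2%), searched on both strands. Windows of Rora, Inpp4b and Itga1 held 28, 25 and 12 CG pairs. Those of Cxcr6, Il7r, Tmem176a and Tmem176b held 1 to 5.

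Cd200r1 encodes the receptor for CD200, which restrains myeloid cells and lymphocytes through the adaptor DOK2. Controls 1, 2 and 3 held 0.773, 1.08 and 0.777 RPKM of Cd200r1, and MycKO 5 and 6 held 4.36 and 7.29 RPKM. Both MycKO libraries were several times above every control, although the value rested on few reads, 21 to 36 in controls and 45 and 184 in MycKO 5 and 6. The means were 0.877 ± 0.177 RPKM (SD, n = 3) and 5.83 ± 2.07 RPKM (SD, n = 2), the widest ratio of means among the members at 6.65. The log2 fold change of RPKM + 1, which understates changes at low level, was 1.83 (SE 0.34). Cd200r1 has close relatives in the same gene family, so its read assignment is uncertain. Of these, Cd200r4 was far more abundant (control mean 41.3 ± 5.14 RPKM, MycKO mean 36.4 ± 7.70 RPKM), and its groups overlapped.

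Itga1 encodes CD49a, the alpha chain that binds collagen with the beta 1 chain and is used to tell ILC1 from NK cells in liver. The 3 controls (1, 2 and 3) held 0.4996, 1.66 and 2.15 RPKM of Itga1, and MycKO 5 and 6 held 1.59 and 3.09 RPKM. The groups overlapped, since MycKO 5 lay below controls 2 and 3. The log2 fold change was 0.49 (SE 0.44), from means of 1.44 ± 0.848 RPKM (SD, n = 3) and 2.34 ± 1.06 RPKM (SD, n = 2). It was 0.17 without control 1, 0.71 without control 3, 0.82 without MycKO 5 and 0.16 without MycKO 6. The controls differed by 4.31 times (95% interval 3.09 to 6.11), more than the MycKO libraries did (1.94 times). Another annotated gene, Pelo, lies inside Itga1 on the same strand with no exon in common, and had means of 6.49 RPKM in controls and 5.70 RPKM in MycKO. The exons of Itga1 also share 685 bases with Gm49395 on the same strand, so reads there cannot be assigned with certainty.

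Rora encodes the nuclear receptor RORα, needed for group 2 innate lymphoid cells. Controls 1, 2 and 3 held 1.78, 2.04 and 3.08 RPKM of Rora, and MycKO 5 and 6 held 3.85 and 4.37 RPKM. The groups did not overlap, but the gap between control 3 and MycKO 5 was smaller than the range of the controls. The means were 2.30 ± 0.686 RPKM (SD, n = 3) and 4.11 ± 0.364 RPKM (SD, n = 2), giving a log2 fold change of 0.65 (SE 0.32). The MycKO libraries did not differ beyond counting error (ratio 1.13, 95% interval 0.982 to 1.31). Its exons share 82 bases with the antisense gene Gm15511, a stretch where reads could belong to either.

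Inpp4b encodes a lipid phosphatase that acts on a product of phosphoinositide 3-kinase and limits AKT signalling. The 3 controls (1, 2 and 3) held 0.519, 0.654 and 0.889 RPKM of Inpp4b, and MycKO 5 and 6 held 3.52 and 4.52 RPKM. Among the 8 members it was the lowest in controls, and both MycKO libraries lay well above the control range. The means were 0.687 ± 0.188 RPKM (SD, n = 3) and 4.02 ± 0.702 RPKM (SD, n = 2), a ratio of 5.85, with a log2 fold change of 1.57 (SE 0.34). Reads behind it ran from 78 in control 1 to 602 in MycKO 6.

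Tmem176a and Tmem176b encode related proteins that cross the membrane several times and are known from dendritic cells and macrophages. Tmem176b stood in controls 1, 2 and 3 at 2.39, 2.15 and 1.26 RPKM, and MycKO 5 and 6 stood at 13.2 and 10.9 RPKM. All controls were far below both MycKO libraries. The means were 1.93 ± 0.596 RPKM (SD, n = 3) and 12.1 ± 1.61 RPKM (SD, n = 2), giving a log2 fold change of 2.17 (SE 0.30), the largest of the members. Tmem176b was no longer called without control 1, control 3, MycKO 5 or MycKO 6, where its log2 fold change was 1.99 to 2.30.

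Tmem176a stood in controls 1, 2 and 3 at 9.14, 5.12 and 1.38 RPKM, and MycKO 5 and 6 stood at 13.6 and 10.8 RPKM. Its groups did not overlap, yet control 1 lay close to MycKO 6, and control 1 held 6.65 times the level of control 3 (95% interval 4.24 to 10.9, from 154 and 22 reads). The log2 fold change was 1.31 (SE 0.55), with 1.78 without control 1 and 0.73 without control 3, from means of 5.21 ± 3.88 RPKM (SD, n = 3) and 12.2 ± 1.99 RPKM (SD, n = 2). For Tmem176b the same controls differed by 1.90 times (95% interval 1.34 to 2.71), so the neighbours did not keep 1 ratio. Tmem176a was at 3.82, 2.39 and 1.09 times Tmem176b in controls 1, 2 and 3, and at 1.03 and 0.986 times in MycKO 5 and 6. In control 3 the ratio was near that of the MycKO libraries, although both genes were low there.

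**Figure D2:**
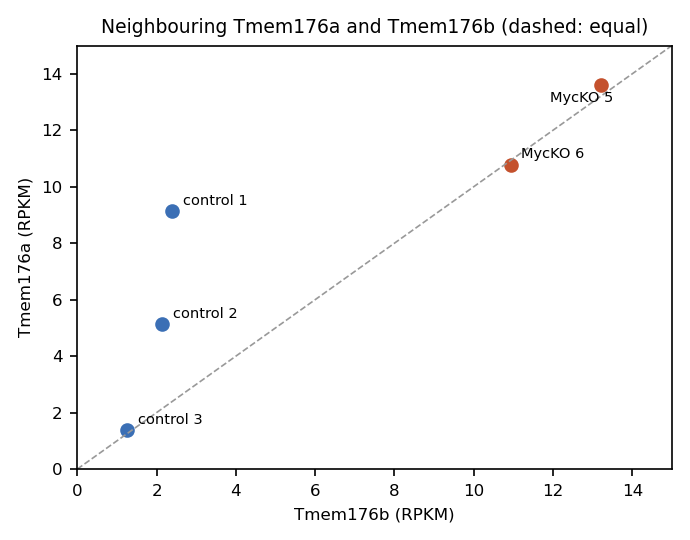
Tmem176a against Tmem176b, both in RPKM on linear axes, with 1 point per library (blue, control; red, MycKO) and equal levels as a dashed line. Controls 1 and 2 lie above the line, at ratios of 3.82 and 2.39, and the other 3 libraries lie near it.

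The Tmem176 genes are neighbours on mouse chromosome 6 that are read in opposite directions. In GENCODE vM21 (GRCm38, mm10), Tmem176b spans 48833818 to 48841496 on the minus strand and Tmem176a spans 48840919 to 48847071 on the plus strand. The spans share 578 bases, of which 81 are exonic in both. Whether counting used the strand is not stated, so reads in these 81 bases cannot be assigned with certainty. The first-listed RefSeq starts (GRCm38.p6) lie 346 bases apart, Tmem176a at 48841483 and Tmem176b at 48841137. Their start windows, at chr6:48841233-48841532 (plus strand) and chr6:48841088-48841387 (minus strand), are shown because they share 1 stretch of sequence. Other RefSeq starts are listed for both genes, so the spacing and the shared stretch hold for the first-listed starts only. Capitals mark the 155 bases held by both windows, read from opposite strands.
Tmem176a: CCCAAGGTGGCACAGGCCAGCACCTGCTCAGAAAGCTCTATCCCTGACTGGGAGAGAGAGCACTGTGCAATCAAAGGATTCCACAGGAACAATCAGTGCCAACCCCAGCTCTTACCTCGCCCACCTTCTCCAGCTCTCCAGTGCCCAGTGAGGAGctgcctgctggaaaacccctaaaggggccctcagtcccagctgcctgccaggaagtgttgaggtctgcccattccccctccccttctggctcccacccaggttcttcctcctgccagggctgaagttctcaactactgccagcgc
Tmem176b: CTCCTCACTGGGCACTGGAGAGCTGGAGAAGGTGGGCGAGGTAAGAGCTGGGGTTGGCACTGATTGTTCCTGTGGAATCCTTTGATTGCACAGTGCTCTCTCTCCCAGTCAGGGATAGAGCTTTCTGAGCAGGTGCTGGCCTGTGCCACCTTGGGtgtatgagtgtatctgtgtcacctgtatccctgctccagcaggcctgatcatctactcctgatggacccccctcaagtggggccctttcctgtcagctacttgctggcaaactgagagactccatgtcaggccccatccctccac
The ratio of the transcripts, given above, differed between controls 1 and 3 by more than counting error, since the intervals for the genes do not meet. The other members lie on different chromosomes or far apart: Itga1 on chromosome 13 (114953096 to 115101964, minus strand), Inpp4b on chromosome 8 (81342556 to 82127914, plus strand), Cd200r1 on chromosome 16 (44765736 to 44794978, plus strand) and Il7r on chromosome 15 (9505788 to 9530176, minus strand). Cxcr6 (123806475 to 123811760) and Rora (68653786 to 69388246) are both on the plus strand of chromosome 9. All 8 are protein-coding.

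In order of mean level in controls, the members ran Il7r, Tmem176a, Cxcr6, Rora, Tmem176b, Itga1, Cd200r1 and Inpp4b, and the ranges of each neighbouring pair in this order overlapped. In MycKO the order was Il7r, Cxcr6, Tmem176a, Tmem176b, Cd200r1, Rora, Inpp4b and Itga1. There Il7r stood apart from Cxcr6, Tmem176b from Cd200r1, and Inpp4b from Itga1, and the other neighbours overlapped. Summed over the members, the level was 24.2 to 28.4 RPKM in controls and 73.8 and 119 RPKM in MycKO 5 and 6. The controls thus agreed closely in the sum while differing in its make-up, with Tmem176a high in control 1, Cxcr6 in control 2, and Il7r, Itga1, Inpp4b and Rora in control 3.

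**Figure D3:**
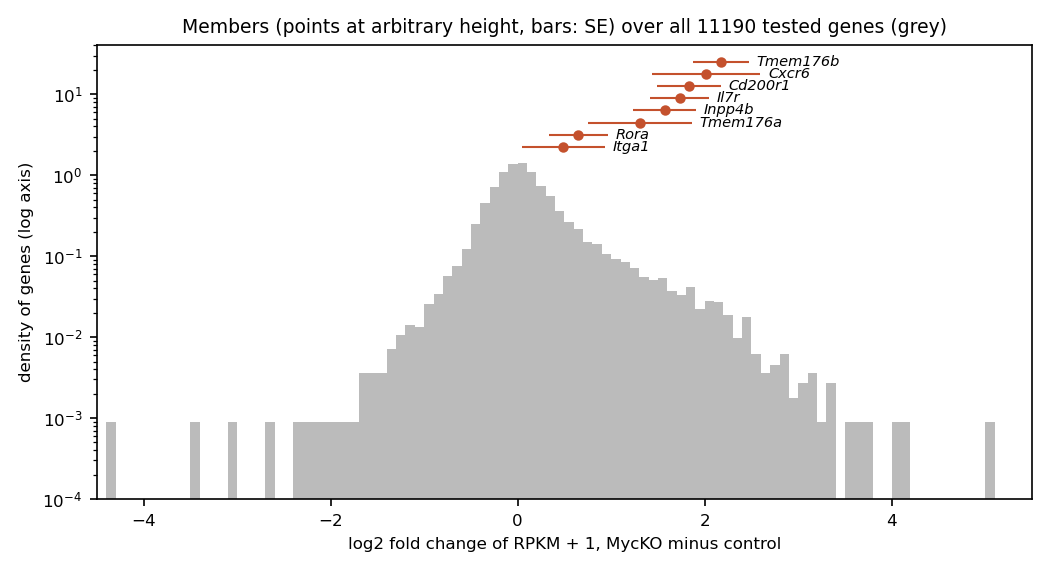
Log2 fold change of RPKM + 1, MycKO minus control, for the 8 members (points with SE bars, at arbitrary height) over the distribution of all 11190 tested genes (grey, density on a log axis). The members run from 0.49 for Itga1 to 2.17 for Tmem176b and all lie above the median of all genes, 0.05.

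The MycKO libraries differed from each other, and the members split by which was higher. Il7r, Cxcr6, Cd200r1, Itga1 and Inpp4b were higher in MycKO 6 beyond counting error, with ratios from 1.28 for Inpp4b (95% interval 1.09 to 1.52) to 3.25 for Cxcr6. Tmem176b was higher in MycKO 5 (ratio 0.828, 95% interval 0.698 to 0.984), and Tmem176a (0.793, 0.605 to 1.05) and Rora did not differ beyond counting error. Over all genes tested, 49.9% were higher in MycKO 6. Summed T cell markers were also higher in MycKO 6 (ratio 1.45, and 1.59 without Cd3g, the most abundant), as were 9 of the 10 tested. Endothelial and stromal markers (1.45) were nearly all Pecam1. Those of dendritic cells (0.609), red cells and platelets (0.422), neutrophils (0.412) and basophils and mast cells (0.149) were higher in MycKO 5, with and without the most abundant gene of each list. In 2 lists 1 gene set the direction. The macrophage and monocyte ratio of 0.796 became 1.33 without Lyz2, and 8 of the 12 tested were higher in MycKO 6. The B cell ratio of 1.94 became 0.880 without Jchain, and 4 of the 10 tested were higher in MycKO 6. With 1 library on each side these ratios compare the libraries, and the part of other cells in them was not tested.

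**Figure D4:**
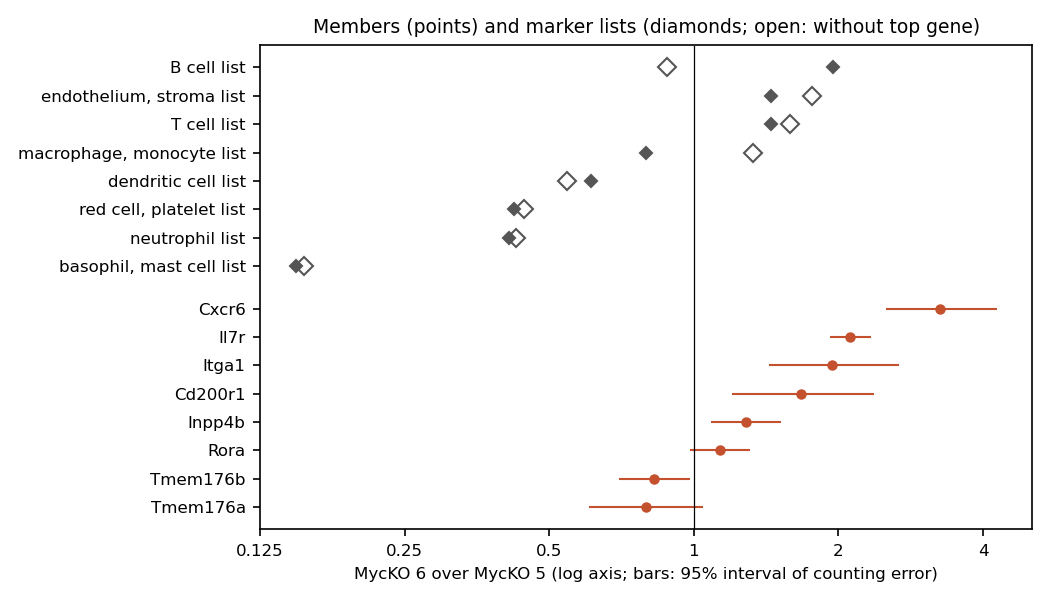
Ratio of MycKO 6 to MycKO 5 on a log axis for the 8 members (red points, with 95% intervals of counting error) and for the summed RPKM of 8 lists of markers of other cells (filled diamonds; open diamonds, without the most abundant gene of the list; no interval). Cxcr6 and Il7r lie farthest to the right among the members, at 3.25 and 2.11, the Tmem176 pair lies left of 1, and for macrophages and B cells the open and filled diamonds lie on opposite sides of 1.

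Markers of other spleen cells had higher sums in MycKO. These lists, too, were chosen with earlier results of these data known. Among all genes tested, limma called 1.24% higher. The most abundant gene of a list is given over all 5 libraries together. T cell markers summed to 61.6 to 82.5 RPKM in controls and 162 and 234 RPKM in MycKO 5 and 6 (12 of 12 listed, none at 0 in every library), and 3 of 10 tested were called higher (Cd3g, the most abundant, Cd3e and Cd8a). The 2 tested markers that were lower on average, Cd28 and Lef1, are named after their values were seen. Their groups overlapped. Cd28 was at 23.9 to 28.2 RPKM in controls and 24.5 and 25.3 RPKM in MycKO. Lef1 was at 20.5 to 23.8 RPKM in controls and 14.8 and 23.1 RPKM in MycKO. In controls both were more abundant than Cd3g, whose means were 11.3 RPKM in controls and 68.9 RPKM in MycKO. Macrophage and monocyte markers summed to 217 to 376 RPKM in controls and 1434 and 1142 RPKM in MycKO, with 10 of 12 called higher, among them C1qa, C1qb and Csf1r. The most abundant, Lyz2, ranged over 55.1 to 220 RPKM among controls, against 734 and 210 RPKM for MycKO 5 and 6, so its groups overlapped. Dendritic cell markers summed to 369 to 489 and 1138 and 694 RPKM, with 1 of 12 called (H2-Ab1); the most abundant, Itgax, is also made by NK cells. B cell markers summed to 90.8 to 143 and 353 and 686 RPKM, with 1 of 10 called (Jchain, the most abundant). In each sum both MycKO libraries were above all controls, as for 7 of the 8 members and for 18.8% of all genes tested. The part of these cells in the members' levels was not tested.

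Smaller sets also had higher sums in MycKO, and their counts again stand beside 1.24% of all genes tested called higher by limma. Basophil and mast cell markers summed to 5.60 to 6.51 RPKM in controls and 79.5 and 11.8 RPKM in MycKO 5 and 6, with 0 of 6 tested called by limma (2 at an unadjusted p under 0.05, 0 by limma-voom and 1 in the authors' deposited table). Mcpt8, the most abundant of them, had no reads in any control, against 27.3 and 3.76 RPKM for MycKO 5 and 6. Neutrophil markers summed to 24.4 to 66.4 and 529 and 218 RPKM (2 of 5 called, S100a8, the most abundant, and Camp). Mpo had no reads in any control, and Ly6g and Elane were not analysed here. Red cell and platelet markers summed to 3.36 to 7.34 and 203 and 85.4 RPKM (3 of 5 called, among them Klf1 and Car1, the most abundant). The globin genes Hba-a1, Hbb-bs and Hbb-bt were not analysed here. Endothelial and stromal markers, mostly Pecam1, summed to 24.6 to 31.1 and 39.0 and 56.5 RPKM, with 0 of 1 tested called by limma, 1 at an unadjusted p under 0.05, and 1 called by limma-voom and in the authors' deposited table. Without Pecam1 the groups overlapped, at 0.245 to 2.74 RPKM in controls and 0.963 and 1.69 RPKM in MycKO. Kdr, Pdgfrb and Tek were not analysed here.

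Markers of other innate lymphoid cells were low in all libraries. Group 2 markers summed to 1.69 to 3.26 RPKM in controls and 6.14 and 5.60 RPKM in MycKO 5 and 6, and Bcl11b, also a T cell gene, was the most abundant. Areg, Il5, Il13 and Il9r were not analysed here. None of the 3 tested was called by limma, by limma-voom or in the authors' deposited table, and 0 had an unadjusted p under 0.05. Limma called 1.34% of all genes tested. Group 3 markers summed to 0.482 to 0.722 and 2.28 and 1.02 RPKM over Ccr6, the more abundant, and Il1r1, both under the minimum for testing. Il23r, Il22, Il17a and Il17f were not analysed here.

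**Figure D5:**
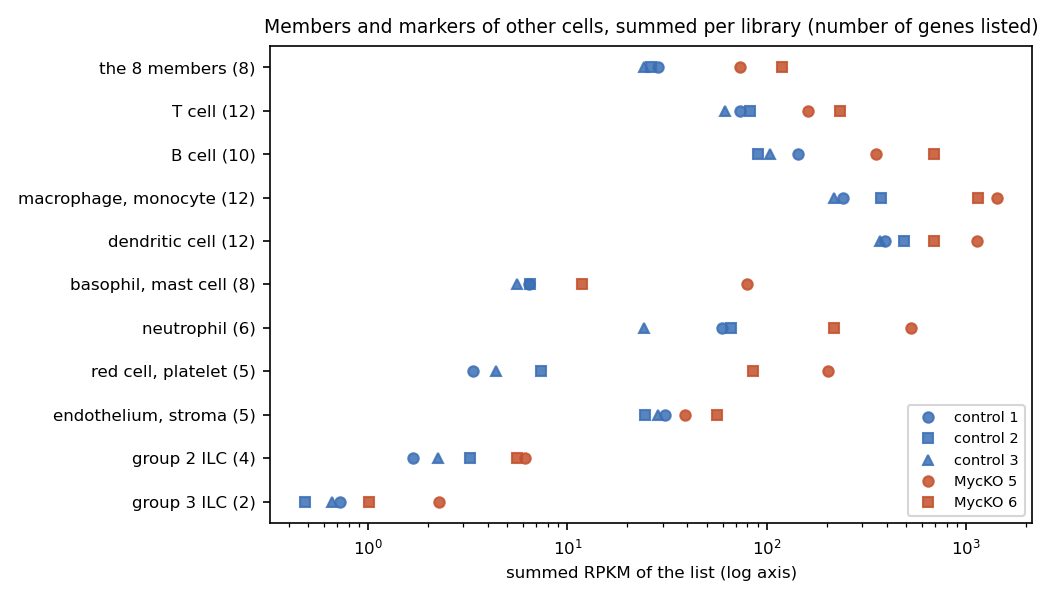
Summed RPKM (log axis) of the 8 members and of 10 lists of markers of other cells in each library (blue, control; red, MycKO; the number of genes in brackets). In every list shown both MycKO libraries lie above all controls.

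Partners of the members showed no common direction. Of 24 genes listed as ligands, coreceptors, signalling partners and relatives, 18 were tested, 9 higher and 9 lower in MycKO, with a median log2 fold change near 0 (-0.0022), beside 0.05 over all genes. By limma 0 were called, beside 1.34% of all genes tested, and 3 reached an unadjusted p below 0.05. By limma-voom 0 were called, and the authors' deposited table called 1 as lower, Dok2. Il2rg, the common gamma chain that pairs with the product of Il7r, had a control mean of 373 ± 42.3 RPKM (SD, n = 3) and a MycKO mean of 359 ± 8.27 RPKM (SD, n = 2), with overlapping groups. The kinase gene Jak1, the most abundant, was at 463 ± 6.30 and 367 ± 50.7 RPKM (log2 fold change -0.34), and both MycKO libraries lay below all controls. Itgb1, the partner chain of CD49a, was at 353 ± 10.5 and 350 ± 16.7 RPKM, with overlapping groups. Dok2, the adaptor downstream of CD200 receptors, was at 193 ± 11.1 and 140 ± 8.18 RPKM (-0.46), with both MycKO libraries below all controls. The ligand genes were near the floor: Cxcl16 at 0.413 ± 0.366 and 3.02 ± 2.71 RPKM and Cd200 at 0.608 ± 0.695 and 2.11 ± 0.548 RPKM. Of the 18 tested, 4 had both MycKO libraries above all controls (Cxcl16, Cd200, Stat5b and Crlf2), against 18.8% of all genes tested. Jak1 and Dok2 were the 2 with both below, against 10.4%. The phosphatase genes Inpp5d and Inpp4a had overlapping groups. Tslp and Nr1d1 were not analysed here.

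Further genes known from ILC1 or tissue-resident relatives of NK cells were mostly higher in MycKO. The list was chosen with earlier results of these data known, so its counts and p-values are a description only. Of 27 genes listed 26 were tested, 24 higher and 2 lower, with a median log2 fold change of 0.66, beside 0.05 over all genes. By limma 2 rose (Kit and Cd7) and none fell, where 1.24% of all genes were called higher and 0.0983% lower. Kit, the stem cell factor receptor gene, rose from a control mean of 12.8 ± 1.15 RPKM (SD, n = 3) to a MycKO mean of 31.3 ± 0.216 RPKM (SD, n = 2), giving a log2 fold change of 1.23 (SE 0.16) and a limma adjusted p of 0.0214. Cd7, a surface protein of T and NK cells, rose from 333 ± 12.2 RPKM to 520 ± 8.70 RPKM, with a log2 fold change of 0.64 (SE 0.095) and a limma adjusted p of 0.0295, and was the most abundant of the list. Both calls were lost without control 1, control 3, MycKO 5 or MycKO 6, where Kit was at 1.20 to 1.29 and Cd7 at 0.63 to 0.67. The next smallest p-values belonged to Il21r (8.74 ± 0.965 and 22.5 ± 8.01 RPKM, limma adjusted p = 0.0695), Gpr183 (1.47 ± 0.769 and 6.65 ± 0.369 RPKM, 0.0806) and Ltb (67.6 ± 19.6 and 143 ± 14.7 RPKM, 0.0855). In 18 of the 26 both MycKO libraries lay above all controls, against 18.8% of all genes. Gata3 (31.7 ± 1.43 and 29.7 ± 1.66 RPKM) and Il18r1 (126 ± 20.1 and 109 ± 2.39 RPKM) were the 2 that were lower on average, with overlapping groups. The gene of Hobit, Zfp683, was not analysed here. Sums of T cell and myeloid markers, given above, also lay higher in MycKO, and their part in these rises was not tested. The part of changes within NK cells was not tested either.

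Genes known to be higher in circulating NK cells than in ILC1 went the other way. That list too was chosen with earlier results of these data known, so its counts and p-values are a description only. Of 21 genes listed 20 were tested, 17 lower and 3 higher, with a median of -0.38, and by limma 4 fell and none rose, where 0.0983% of all genes were called lower. These were Klrg1 (-1.35, SE 0.21, limma adjusted p = 0.034), S1pr5 (-0.86, SE 0.14, 0.0387), Itgam (-0.69, SE 0.11, 0.0387) and Cma1 (-1.11, SE 0.20, 0.0496). They encode an inhibitory receptor, an egress receptor, the integrin CD11b and a protease. All 4 calls were lost without control 1, control 3 or MycKO 5 and with a pseudocount of 0.1. Itgam and Cma1 were also lost without control 2, Itgam without MycKO 6, and Cma1 with no filter. Where the calls were lost, the log2 fold changes were -1.05 to -1.49 for Klrg1, -0.67 to -0.87 for S1pr5, -0.58 to -0.79 for Itgam and -0.75 to -1.15 for Cma1. The defining genes of the NK side were lower by less and did not pass: Itga2, the DX5 antigen gene, had means of 55.1 ± 2.67 RPKM (control, n = 3) and 42.8 ± 2.90 RPKM (MycKO, n = 2), and Eomes changed by -0.27, with a limma adjusted p of 0.358. Prf1 (499 ± 40.5 and 353 ± 29.9 RPKM) and Gzma, the most abundant (6910 ± 334 and 5159 ± 651 RPKM), did not pass either. In 10 of the 20 both MycKO libraries lay below all controls, against 10.4% of all genes. The 3 that were higher on average were Khdc1a, Klra9 and Irf8, all with overlapping groups. Khdc1a was at 32.2 ± 14.5 and 60.0 ± 18.4 RPKM, with a log2 fold change of 0.93. The receptor genes Klra3 and Klra7 also had overlapping groups, and Klra4 was not analysed here. Whether these falls lie within NK cells or stem from a different mix of cells was not tested.

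Patterns closest to each member were sought among 8724 genes, by the root mean square difference between log2 values of RPKM + 1, each centred on its own mean over the 5 libraries. With 5 libraries in 2 groups such likeness is a description only. The added 1 understates changes at low level, so a member with low values can match a gene with a smaller ratio. Tmem176b was closest to Marcks (0.0935), Ifngr2 (0.0977) and the macrophage receptor gene Csf1r (0.138). Cd200r1 was closest to Fcgr4 (0.0987), Slc15a3 (0.101) and Fcgrt (0.108), of which Fcgr4 encodes an Fc receptor of myeloid cells. Inpp4b was closest to App (0.114), the B cell gene Bank1 (0.117) and Lgmn (0.126), a lysosomal protease gene. For Cxcr6 the nearest were less close: Ccr3 (0.330), Pilra (0.331) and the T cell gene Cd3d (0.338), and Cd3d shared its high value in control 2 (13.9 RPKM, against 5.54 and 3.21 RPKM in controls 1 and 3). Il7r was closest to Itgad (0.192), Gfra2 (0.193) and Ckb (0.207). Tmem176a was closest to Cxx1c (0.189), Nr4a1 (0.285) and Tnf (0.288), the last with 6.95, 4.16 and 1.27 RPKM in controls 1, 2 and 3. Itga1 was closest to Cby1 (0.114), Ldlrad4 (0.119) and Galnt4 (0.119), and Rora to Odc1 (0.0351), Rmdn3 (0.0582) and Cbr1 (0.0683). Among the members themselves, Inpp4b and Cd200r1 were the closest pair (0.217). Tmem176a and Itga1 were the farthest apart (1.12), and the neighbours Tmem176a and Tmem176b lay between (0.639).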

How the data were processed

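Sorted spleen cells were lysed directly and stranded libraries were read as single reads, per the labels' protocols. TopHat, edgeR and mm10 are named, without roles or versions, per the submitters' processing notes; which annotation and counter were used, and whether strand was used, was not given in the sources used here. The deposited table holds RPKM per library, per the file headers. Beside these the authors give a mean normalized signal for each group and for all libraries, a ratio of the group means, its log2, and a p-value with and without adjustment. The lowest mean normalized value in the deposited table was 2.099, and genes under this value have no row.

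A minimum of 1 RPKM in 2 or more libraries left 11190 of 13004 genes, all 8 members among them. Limma 3.58.1 in R 4.3.3 was fitted to log2(RPKM + 1) with both groups, all 5 libraries and a variance trend, two-sided, with Benjamini-Hochberg adjustment over all genes tested and a threshold of 0.05. Reads per gene were recovered from RPKM and group means, and 100% of values in each library were whole within 0.0001 of a read. No pair of libraries agreed within counting noise (chi-square per degree of freedom of at least 17.8). Intervals of ratios are exact binomial (95%) and cover counting error only, since PCR copies were not marked. The 8 members and all lists were chosen with earlier results of these data known. Genes named are the members; from the partner, ILC1 and NK lists, those that passed, up to 3 others with the smallest p, the most abundant, and further ones chosen after their values were seen; from each list of other cells, the most abundant, those not analysed and up to 3 that passed; and the 3 nearest patterns per member, leaving out pseudogenes, predicted genes and antigen receptor segments, with a mean of at least 2 on the log2 scale. Some listed genes are not reported here.

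Alternatives were a filter of at least 5 RPKM, no filter, a pseudocount of 0.1, median-of-ratios and upper-quartile scaling, leaving out each library, limma-voom on reads and, added after seeing the data, the authors' adjusted p-values and marker sums without the most abundant gene. Figures were drawn with matplotlib 3.10.9.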

Additional observations from a re-analysis of the deposited data

How the results depend on the processing

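All 8 members stayed higher in MycKO in each of the 82 combinations of a member and an alternative that could be fitted. For the 7 with both MycKO libraries above all controls, leaving out a library could not have reversed this, so the count is a description. With the filter of at least 5 RPKM only 4 members were tested. Inpp4b was also under the minimum without MycKO 5 and without MycKO 6. The number of members called was 1, but 2 with the filter of at least 5 RPKM (Tmem176b and Il7r), 3 with limma-voom, 4 by the authors' deposited adjusted p-values, and 0 to 1 when each library was left out in turn (1 without control 2, Tmem176b, and 1 without MycKO 5, Il7r). Over all genes, 150 changed, with 80 at a pseudocount of 0.1, 232 with limma-voom, 442 by the authors' deposited adjusted p-values and 34 to 217 leaving out each library. For partner genes the count of 0 became 1 by the authors' deposited adjusted p-values. Of the further ILC1 genes 2 were called, but 5 with limma-voom, 7 by the authors' deposited adjusted p-values and 0 to 3 leaving out each library. Of the NK genes 4 were called, but 6 with limma-voom and 6 by the authors' deposited adjusted p-values, all lower. The count was 0 with a pseudocount of 0.1, 3 with no filter (without Cma1) and 0 to 2 leaving out each control in turn. The cause of these shifts was not tested. No paired analysis was possible because the groups share no replicate number (1, 2 and 3 against 5 and 6). Few reads stood behind some members: Cd200r1 rested on 21 to 184 reads per library and Tmem176a on 22 to 161.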
